A study of Mus musculus with 3 samples.

Results

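The acinar cell, which makes and secretes the digestive enzymes of the pancreas, is specified and maintained by a small set of transcription factors. Those described here are the genes Ptf1a, Rbpjl, Bhlha15, Nr5a2, Gata4, Gata6 and Xbp1. They were chosen by name, and every probe that the platform annotation assigns to 1 of these symbols was taken. This gave 7 of the 16593 genes and 12 of the 25697 probes on the array. They were measured on 3 Illumina MouseRef-8 v2.0 beadchips, which read biotin-labelled RNA on bead-bound probes in 1 colour. The 3 samples form 1 group, replicates 1 to 3 of cells titled induced delta, collected at day 10. All came from Rag1-/- mice, a strain without mature lymphocytes of the T and B lineages. The splenic lobe of the pancreas had received 100 µl of purified adenovirus, the islets were removed, the acinar fraction was digested to single cells, and cells carrying Cherry, a red fluorescent protein, were sorted by flow cytometry. Delta cells are the somatostatin cells of the islet. The extraction text calls the same cells induced beta cells, and the labels do not name the gene that the virus carried. No label tells if different animals gave the 3 samples, so the spread between them may be technical. With 1 group and no control array analysed here, nothing below is a change. Fewer cells of a type and less RNA per cell cannot be told apart in such bulk RNA, nor can the cells that hold a transcript be named.

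PTF1 is a complex of PTF1A, a basic helix-loop-helix (bHLH) factor, with a common E protein and an RBPJ-type subunit. In the embryonic pancreas that subunit is RBPJ, which also acts in Notch signalling. In acinar cells it is replaced by the related RBPJL, and the complex then drives enzyme genes. NR5A2, a nuclear receptor, acts with PTF1 on those genes. BHLHA15, also called MIST1, organises the secretory apparatus, and XBP1 expands the endoplasmic reticulum (ER). GATA4 and GATA6 are zinc finger factors that act early in pancreas formation, and GATA6 is also needed to maintain acinar cells.

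Transcripts of 6 of the 7 genes were detected on all 3 arrays, and the exception was Gata4. A probe was called detected where its deposited detection p, which ranks it among the array's negative control beads, was under 0.05 on all 3 arrays. A gene was called detected where any of its probes was. By this rule 40.9% of all genes were detected, with 35.5%, 48.7% and 60.3% of genes with 1, 2 and 3 probes. Of the 4 acinar factors with 1 probe, 3 were detected, as were all 3 factors with several. By probe, 10 of 12 were detected, against 33% of all probes. Of the others, 1 was above background on 2 arrays and 1 on none. Levels are given as log2 intensity after background correction and quantile normalization. The background limit of an array is the lowest level of a probe with a detection p under 0.05 on it. These limits were 4.83, 4.77 and 4.75 on the 3 arrays. The median level of the brightest probe was 9.27 over the 7 genes and 4.64 over all genes. Taking the brightest probe favours genes with several, which were 3 of the 7 and 4777 of all 16593. Probes differ in efficiency, so no single gene's level is set against another's.

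**Figure D1:**
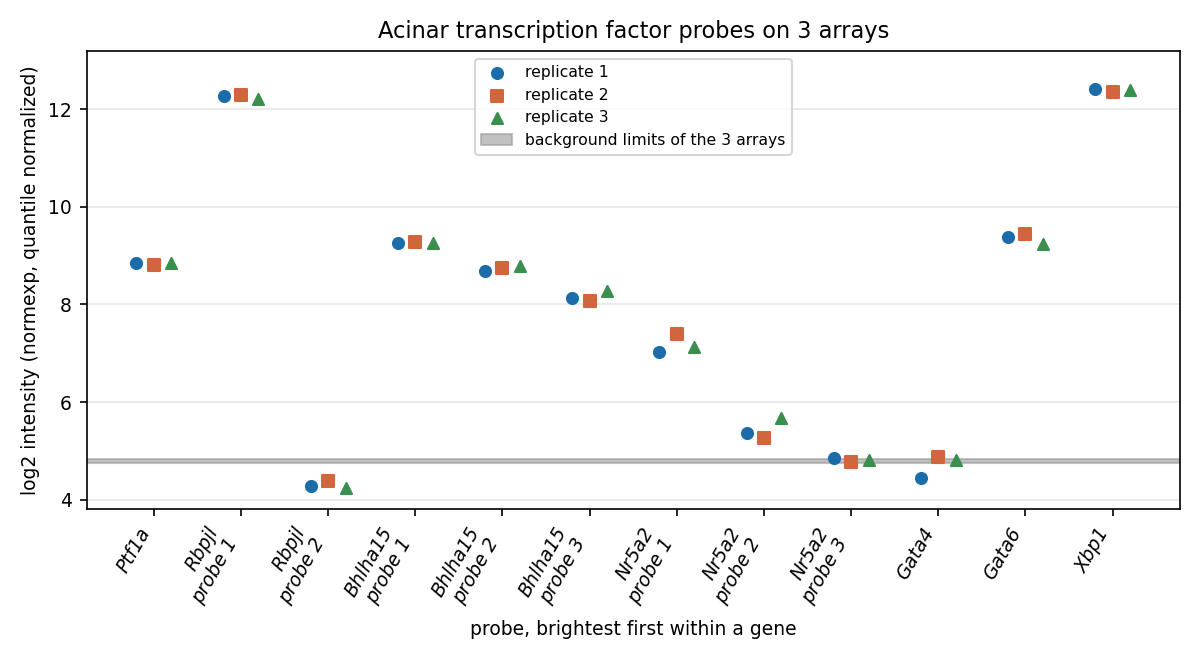
Log2 intensity of each of the 12 probes (horizontal axis) on the arrays of replicates 1, 2 and 3 (points), with the range of the 3 background limits as a grey band. The second Rbpjl probe lies below the band, the third Nr5a2 probe lies in or just above it, the Gata4 probe straddles it, and the other 9 probes lie above it on every array.

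The probe of Ptf1a, the bHLH subunit of PTF1, had intensities of 480.2, 494.7 and 521.6 on the arrays of replicates 1, 2 and 3. The median negative control, here and below inferred from the detection p of the probes, was 60.4, 54.2 and 51.9. The Ptf1a probe was therefore 7.95, 9.13 and 10.1 times that median, and no negative control was brighter (detection p of 0). On the log2 scale it read 8.86, 8.80 and 8.86, with a mean of 8.84 ± 0.033 (SD, n = 3 here and below). The 3 arrays lay within 0.058 log2 units of each other, and within 0.20 (SD 0.0995) when they were brought to a common median instead.

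Rbpjl was represented by 2 probes that gave opposite calls. Probe ILMN_2733957 had intensities of 4805.8, 5046.8 and 5011.3, or 79.6, 93.1 and 96.6 times the median negative control, and log2 levels of 12.27, 12.28 and 12.21 (12.25 ± 0.041). Probe ILMN_2860717 had 56.5, 55.8 and 46.3, with detection p of 0.766, 0.383 and 0.902, so it was at background on every array. Both are annotated to the same transcript record. Of the 2596 genes with several probes of which at least 1 was detected, 80.3% carried a further probe that missed the call. Discordant calls were thus common, but this share includes probes that missed it on a single array. It does not say how often probes of a gene lay as far apart as these 2.

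Rbpj, the paralogue that RBPJL replaces, was at background with all 3 of its probes. Their detection p ranged over the 3 arrays from 0.326 to 0.898, and the brightest read 4.33, 4.32 and 4.39. The data thus hold a detected probe for the acinar subunit and none for the general one. A probe can read background where another of the same gene is bright, as for Rbpjl, so this does not establish that Rbpj was off. Of the E proteins, the partners of PTF1A in DNA binding, Tcf4 read 9.43, 9.57 and 9.45 (9.48 ± 0.078). Tcf12 was detected by 1 of its 3 probes, at 5.72, 5.67 and 5.90 (5.77 ± 0.12), and Tcf3 had no named probe. Of the PTF1 partners 2 of 3 measured genes were therefore detected, with a median level of 5.77. Id proteins bind E proteins and keep them from DNA, and 2 of 4 Id genes were detected, with a median level of 5.92. By the same rule 40.9% of all genes were detected. Id1 read 6.69 ± 0.071 and Id2 6.93 ± 0.13. Id3 was above background on 2 arrays, with 4.83, 5.16 and 5.46 on replicates 1, 2 and 3, and Id4 on none (4.35 ± 0.049).

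PTF1 binds a paired site, an E-box (CANNTG) followed by a box with the letters TTCCC at a distance of about 1 or 2 turns of the DNA helix. These letters were searched on both strands, with 5, 6, 15 or 16 bases between the boxes, in RefSeq promoter windows of GRCm38.p6 that run from 250 bases before to 50 after a gene's listed start. They were chosen with the Rbpjl sequence in view. Such windows were held for 5 of the 7 factors and 19 of the 24 listed enzyme genes. Rbpjl was the 1 factor with a match, at 2 spacings, 5 and 16 bases, which share the same TTCCC box. Among the enzyme genes 5 of 19 had a match, against 1.80% of all 27025 genes with a window. The sites of Rbpjl and of the 4 matched enzyme genes that had a probe are shown because they pair a PTF1 subunit with genes known to be driven by PTF1. Each is read 5′ to 3′ on the gene's strand, with E-boxes and the TTCCC box, or its reverse complement, in capitals.
Rbpjl, chr2:164403090-164403119, plus strand: tGGGAAgcctaCATCTGcccagCAGGTGtc
Cela1, chr15:100688007-100688036, minus strand: ttcatgtCACCTGcgcttTTCCCtgccttc
Ctrb1, chr8:111691193-111691222, minus strand: atcagagCAGCTGtccttTTCCCatgggtt
Cel, chr2:28563461-28563490, minus strand: tGGGAAaaaatggaccatcccaCACCTGtg
Cpa1, chr6:30639198-30639227, plus strand: tGGGAAaccgaatgagtagtccCAGCTGgg
The boxes of Rbpjl began 103 bases before its listed start. A match is a run of letters and not a measured site. Of all 241 measured genes whose window held a match, 43.2% were detected, close to the 40.9% of all genes.

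Of the genes that PTF1 and NR5A2 are known to drive, 21 of 21 measured were detected, against 40.9% of all genes. They encode digestive enzymes and granule proteins, with a median level of 14.50 against 4.64 over all genes. Cpa1, a carboxypeptidase, read 14.50 ± 0.019, Cpb1, another, 13.70 ± 0.045, and the elastases Cela1 and Cela2a 14.44 ± 0.039 and 15.28 ± 0.039. Quantile normalization gives equal ranks equal values, such as 14.51 for Cpa1 on replicates 2 and 3. The SDs of such bright probes therefore reflect changes of rank. Prss1 and Pnlip had no named probe. Probes of closely related protease genes may bind each other's transcripts, so single values of this list are uncertain.

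All 3 Bhlha15 probes were far above background. Probe ILMN_2651389 had intensities of 620.7, 676.2 and 677.2, ILMN_2651388 434.3, 480.4 and 496.5, and ILMN_2664777 310.2, 312.8 and 360.9, each brighter than every negative control. Their log2 means were 9.27 ± 0.0041, 8.75 ± 0.046 and 8.16 ± 0.11. The array of replicate 1 or 2 was lowest for each of them, and the largest range between arrays was 0.22 log2 units. The very small SD of the first probe depended on the scaling. It was 0.11 when arrays were brought to a common median instead, a scaling that also set the medians of all detected probes 0.159 log2 units apart.

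Of the genes that MIST1 is known to activate, 6 of 9 measured were detected, against 40.9% of all genes, with a median level of 5.61. Rab3d, a small GTPase of zymogen granules, read 11.77 ± 0.030, and Tmed6, a protein of the early secretory pathway, 9.97 ± 0.11. Copz2, a subunit of the COPI vesicle coat, read 6.76 ± 0.023. Serpini1, a serpin, Rnf13, a ubiquitin ligase, and Cckar, the receptor for cholecystokinin on acinar cells, were above background on no array (4.71 ± 0.060, 4.34 ± 0.072 and 4.37 ± 0.011). Rab26 and Atp2c2 had no named probe.

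Nr5a2 had 3 probes that differed in signal and in the order of the arrays. Probe ILMN_2634389 had intensities of 169.2, 210.7 and 181.4, or 2.80, 3.89 and 3.50 times the median negative control. Its log2 levels were 7.02, 7.40 and 7.13 (7.18 ± 0.20), highest on replicate 2 and lowest on replicate 1. Probe ILMN_2813203 had 85.5, 77.7 and 89.7 and read 5.36, 5.27 and 5.68 (5.44 ± 0.22), highest on replicate 3 and lowest on replicate 2. The replicate that was highest for the first probe was thus the lowest for the second. Probe ILMN_2751680 had 73.9, 65.9 and 64.8 and passed detection narrowly, with detection p of 0.0439, 0.0464 and 0.0251. It did not pass at a detection p of 0.01, where the other 2 probes still did.

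Of 7 genes whose products act with NR5A2, 3 were detected, against 40.9% of all genes. The median level of the 7 was 4.76. Prox1, a homeobox protein that represses NR5A2 in the liver, read 8.52 ± 0.078, Ncoa1, a coactivator of nuclear receptors, 7.81 ± 0.11, and Ppargc1a, another coactivator, 5.40 ± 0.13. Nr0b1 and Nr0b2, which encode the corepressors DAX1 and SHP, were above background on no array (4.33 ± 0.026 and 4.33 ± 0.014), nor was the coactivator gene Ncoa2 (4.49 ± 0.10). Ncoa3, of the same coactivator family, was above background on 2 arrays (4.76 ± 0.12).

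The GATA genes differed in their calls. The Gata6 probe had intensities of 678.3, 746.7 and 668.5, or 11.2, 13.8 and 12.9 times the median negative control. It read 9.38, 9.44 and 9.25 (9.35 ± 0.097), and no negative control was brighter on any array. The Gata4 probe had 64.0, 68.1 and 64.6, or 1.06, 1.26 and 1.25 times that median, with detection p of 0.272, 0.0276 and 0.0301. On replicates 2 and 3 it lay 0.10 and 0.056 log2 units above the background limit, and on replicate 1 it fell 0.38 below it (4.45, 4.87 and 4.81; 4.71 ± 0.23). At a detection p of 0.01 it was above background on no array. Without the array of replicate 1, Gata4 counted as detected and the count rose to 7 of 7. It was also 7 of 7 where 2 of 3 arrays sufficed, a rule that 44.7% of all genes met.

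The other GATA genes with a named probe, Gata1, Gata2, Gata3 and Gata5, which serve blood, lymphoid, heart and gut lineages among others, were above background on no array (4.44 ± 0.094, 4.61 ± 0.18, 4.30 ± 0.022 and 4.35 ± 0.054). Of the 2 FOG genes, whose zinc finger products bind GATA factors, Zfpm1 read 10.75, 10.77 and 10.77 (10.76 ± 0.012) and Zfpm2 was at background (4.28 ± 0.037). Nr5a1, the other NR5A receptor gene, was likewise at background (4.50 ± 0.095). In the list of relatives, 3 of 11 measured genes were detected, against 40.9% of all genes, with a median level of 4.50. These were the bZIP genes Atf6b (8.35 ± 0.022), Creb3 (9.10 ± 0.082) and Creb3l2 (6.86 ± 0.079), named after their values were seen. All 3 encode factors that are anchored in the ER membrane until cut. The listed genes Creb3l1, Creb3l3 and Creb3l4 encode factors of the same kind and were not detected on all 3 arrays. Creb3l1 (4.50 ± 0.16) and Creb3l3 (4.46 ± 0.13) were above background on no array, and Creb3l4 (4.98 ± 0.15) on 2.

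Xbp1 was bright on every array. Its probe had intensities of 5327.2, 5230.6 and 5676.8, or 88.2, 96.5 and 109.5 times the median negative control, and read 12.41, 12.36 and 12.39 (12.39 ± 0.028). XBP1 becomes an active factor only once the ER kinase IRE1 has cut its mRNA, and a single probe with no known position does not show which form was present. Ern1, which encodes the common form of IRE1, was above background on 1 array (4.86, 4.52 and 4.50 on replicates 1, 2 and 3). Ern2, the epithelial form, was detected close to the limit (4.97 ± 0.092), and not at a detection p of 0.01. Rtcb, which encodes the ligase that rejoins the cut mRNA, read 8.16 ± 0.094.

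Of the ER genes known to be XBP1 targets, 12 of 18 measured were detected, against 40.9% of all genes. The median level of the 18 was 6.17. Dnajb9, a cochaperone of the ER, read 8.61 ± 0.044, Dnajc3, another, 9.23 ± 0.063, and Sec61a1, the pore of protein entry into the ER, 8.51 ± 0.074. Edem1, a factor of ER-associated degradation, was above background on no array (4.43 ± 0.12). Dnajb11 and Sdf2l1 had no named probe.

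The ER stress response element, a box CCAAT followed after 9 bases by a box CCACG and bound by ATF6 and XBP1 with NF-Y, was found on either strand in the windows of 5 of 17 XBP1 targets. It was found in 0.137% of all genes with a window. The 5 are shown because they are the XBP1 targets that carry the full element, with its boxes or their reverse complement in capitals.
Dnajc3, chr14:118937822-118937851, plus strand: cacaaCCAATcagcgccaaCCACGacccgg
Hspa5, chr2:34772020-34772049, plus strand: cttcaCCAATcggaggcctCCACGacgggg
Pdia6, chr12:17266486-17266515, plus strand: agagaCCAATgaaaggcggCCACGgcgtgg
Syvn1, chr19:6046527-6046556, plus strand: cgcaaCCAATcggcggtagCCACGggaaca
Creld2, chr15:88819515-88819544, plus strand: cttctCGTGGcgagcctcaATTGGtccaca
Dnajc3 was given above. Syvn1, a ubiquitin ligase of ER-associated degradation, read 11.70 ± 0.052, Pdia6, a disulfide isomerase, 6.20 ± 0.11, and Creld2, an ER protein, 6.14 ± 0.060. Hspa5, the chaperone BiP, was above background on 2 arrays, with 4.80, 5.24 and 5.45 on replicates 1, 2 and 3. Of these 5 genes, named for their element after their values were seen, Hspa5 was the 1 not detected on all 3 arrays. Of all 18 measured genes with the element, 55.6% were detected, against 40.9% of all genes.

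**Figure D2:**
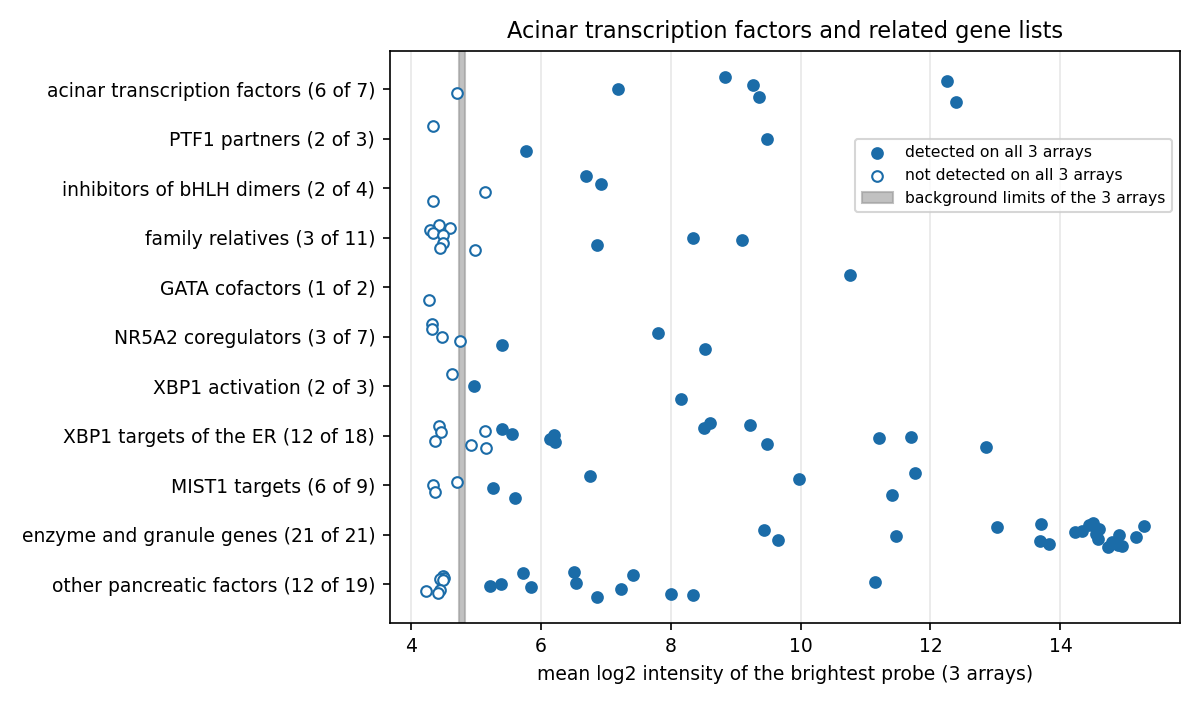
Mean log2 intensity of the brightest probe of each measured gene (points) in the 7 acinar factors and 10 related lists (rows), filled where the gene was detected on all 3 arrays, with the background limits as a grey band. All 21 enzyme and granule genes are filled, and 8 of 11 family relatives are open.

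Other factors of the acinar or progenitor state were detected for 12 of 19 measured genes, against 40.9% of all genes. The median level of the 19 was 5.73. Pdx1, a homeobox factor of the early pancreas and of beta and delta cells, read 6.52 ± 0.13. Sox9, a factor of progenitor and duct cells, read 5.73 ± 0.11, and Hnf4a, a nuclear receptor of pancreas and liver, 7.42 ± 0.063. Hnf4g, its relative, was above background on no array (4.50 ± 0.11).

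No probe of an acinar factor passed the test of spread between the 3 arrays. For each of the 8486 probes detected on all 3, the variance over the arrays was set against the variance limma expects at that level (F test). That expectation was fitted to these same probes and arrays, so the test can flag only probes more variable than others of their level. No probe of any gene passed at an adjusted p of 0.05 (0%), and the smallest adjusted p was 0.307. At an unadjusted p under 0.05 there were 407 probes, or 4.8%, none of them among the 10 probes of the acinar factors. The smallest p among these 10 was that of the brightest Nr5a2 probe (limma F test across all detected probes, adjusted p = 0.989). Their SDs ran from 0.0041 to 0.22 log2 units with a median of 0.044, where the median over all detected probes was 0.0872. On a common median of the arrays the SDs of the same 10 probes ran from 0.031 to 0.26 with a median of 0.106, and the median over all detected probes was 0.116. Replicate 2 was highest for 4 probes, replicate 3 for 4 and replicate 1 for 2, so no array was highest throughout. This split depended on the scaling: on a common median, replicate 3 was highest for 7 of the 10 and replicate 2 for 3. With that scaling the medians of all 8486 detected probes were 6.66, 6.77 and 6.82 on replicates 1, 2 and 3. Replicate 3 was thus also highest for detected probes in general. On that scale 0.424% of all probes passed the F test after adjustment and 6.15% before it. The 10 probes gave 0 such calls after adjustment and 2 before it, both of Nr5a2. A p above the threshold does not show that the arrays were alike.

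**Figure D3:**
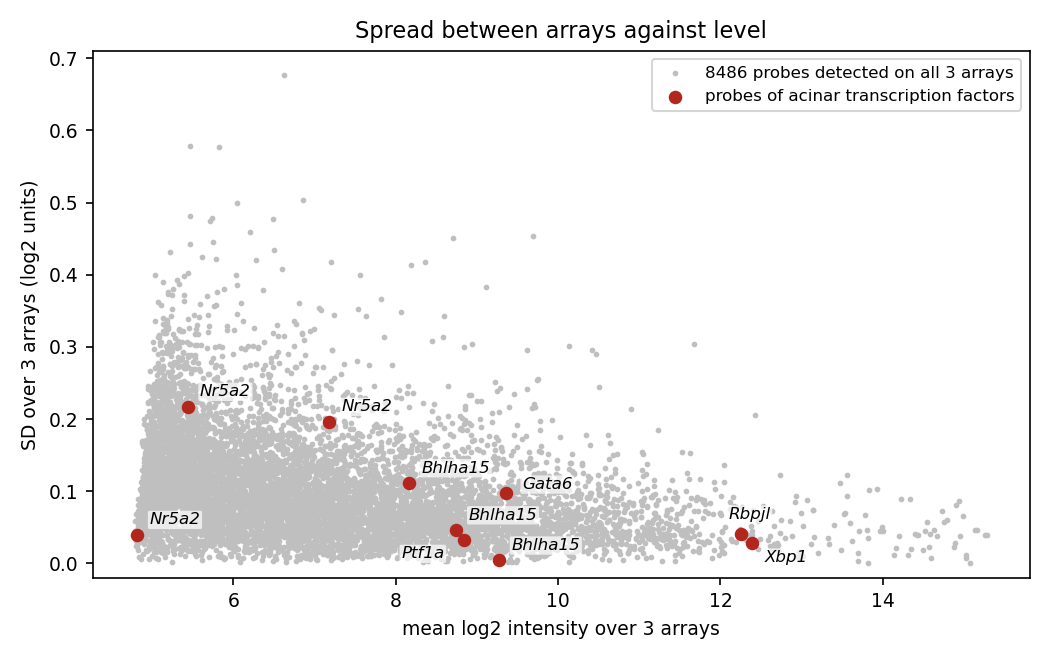
SD over the 3 arrays (vertical axis, log2 units) against mean log2 intensity for the 8486 probes detected on all arrays (grey) and the 10 such probes of the acinar factors (red, labelled by gene). The 2 brighter Nr5a2 probes have the largest SDs of the 10, 0.20 and 0.22, and all 10 lie inside the grey cloud.

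Several of these factors are also used by other cells that the sort could hold. All 5 acinar markers were detected, and so were all 8 endocrine markers, among them Sst, the somatostatin gene (13.81 ± 0.046). Xbp1 is needed by plasma cells, which belong to the B lineage whose mature lymphocytes the Rag1-/- strain lacks. Of the plasma and B cell markers 1 of 6 was detected, Sdc1 (5.37 ± 0.15), and Cd79a was above background on 2 arrays (4.87, 4.54 and 4.83 on replicates 1, 2 and 3). Cd79b (4.49 ± 0.20), Ms4a1 (4.60 ± 0.072), Jchain (4.38 ± 0.046) and Mzb1 (4.60 ± 0.039) were above background on none. The count was 2 of 6 without replicate 2 or where 2 of 3 arrays sufficed. Duct markers were detected for 4 of 6, macrophage markers for 3 of 5, and mesenchyme and stellate markers for 3 of 7. Endothelial markers were detected for 2 of 6 and T cell markers for 1 of 5. Over all genes the share detected was 40.9%. The share of each factor's signal that came from such cells was not tested. The Rag1 probe was at background on all 3 arrays (4.47 ± 0.097). No source used here says if it covers the deleted part of the gene, and no array of another genotype was compared. It is therefore no test of the genotype.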

How the data were processed

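The authors deposited, per the file headers, a linear average bead intensity and a detection p-value for each probe and array. The 3 intensity columns share a mean of 211.8 but not a median (65.9, 59.5 and 57.2), so they had been scaled before deposit, and steps of the detection p imply 798 negative controls per array. A second deposited table holds intensity values on 1 common distribution that rank probes as the first does. No source used here names the scanner software.

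Intensities were corrected by normexp (offset 16, negative controls inferred from detection), quantile normalized and taken to log2 (neqc, limma 3.58.1, R 4.3.3). The arrays detected 9145, 9592 and 9713 probes, and their number limits the precision. Pearson's r across detected probes was 0.995 to 0.996 between arrays. Symbols came from the platform annotation, for 23978 of 25697 probes. Genes of the related lists are given by their brightest probe. The F test was adjusted by Benjamini-Hochberg over all detected probes. Its script was tested on simulated data, where the test missed most of the probes that had been shifted on a single array. A lack of calls therefore does not exclude such shifts. Motifs were searched with Python 3.11.15. Genes were named by rule: all in lists of up to 7, otherwise the first 4 measured, and the undetected where there were 4 or fewer. Members and lists were chosen with earlier results of these data known, and the motifs after the data were seen.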

Additional observations from a re-analysis of the deposited data

How the results depend on the processing

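The count of 6 detected acinar factors was the same at a detection p of 0.01, with these p-values adjusted over the probes of an array, and without replicate 2 or 3. It was 7 when 2 of 3 arrays sufficed and without replicate 1, in both cases by Gata4. Of the 12 probes, 10 were detected, and the number ranged from 9 to 11 over the same alternatives. Without 1 replicate these ranges were 6 to 7 genes and 10 to 11 probes. No acinar factor probe passed the F test after adjustment under any alternative run: median scaling, the authors' processed values, no variance trend, a robust prior variance, all probes without a filter, or without replicate 1, 2 or 3. The lowest adjusted p was 0.788, with median scaling, where 36 of all probes passed and 2 Nr5a2 probes had an unadjusted p under 0.05. An unadjusted p under 0.05 was also found for 1 Nr5a2 probe without a filter, where 22 of all probes passed. The same held for 1 Nr5a2 probe without replicate 1 and for 1 without replicate 3, where no probe of any gene passed. Mean levels moved by less than 1 SD for all 12 probes with median scaling. They moved by more for 8 with the authors' values, 9 without background correction and 9 with an offset of 50. Without replicate 1, 2 or 3 they did so for 3, 1 and 4 probes. The SD meant is that of each probe over the 3 arrays, which was as small as 0.0041. Of 108 list counts under alternatives, 104 stayed within 1.5 times the main count. The others were those of XBP1 activation, which went from 2 to 1, and of the plasma and B cell markers, from 1 to 2. No paired analysis was possible because there is 1 group. The lowest signals, those of Gata4 and the dimmest Nr5a2 probe, lie too near the negative controls for a firm call.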
